A study of Mus musculus with 18 samples.

Results

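The comparison set mouse embryonic fibroblasts (MEF) given the Col1a1-miR-29b vector against MEF given the empty vector, both grown without TGF-β. It was chosen by its labels alone and holds 6 of the 18 libraries, 3 on each side. Of 55450 genes in the table, 21161 had enough counts to be tested, and 1327 of these differed between the vectors. MEF are cultured cells that make extracellular matrix. Other groups received TGF-β 6 h after transfection for a further 24 h, and the cells used here were the controls without it. Poly(A) RNA was sequenced. The Col1a1-miR-29b plasmid was a pcDNA3 that carried a rat Col1a1 promoter, EGFP, human miR-29b-1 and a red fluorescent protein under an SV40 promoter. The empty pcDNA3 lacked all of these, so none of them can be told apart from miR-29b here. Plasmids were dosed at equal moles per ml. By vector size, the paper gives a larger mass of DNA for Col1a1-miR-29b than for CMV-miR-29b, and none for the empty vector. As the empty vector lacked these parts, equal moles of it would hold less DNA by mass than Col1a1-miR-29b. This difference in mass also cannot be told apart from miR-29b here. The study ran 3 repeated experiments. The labels do not say which libraries came from which culture, so the p-values measure the spread between libraries. That spread was estimated within groups over all 18 libraries and not from these 6 alone. In the lists below, libraries are given in the order c, d, e for empty vector and c, d and the unlettered library for Col1a1-miR-29b, because 1 library carried a letter that matches no sample title.

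MicroRNAs of the miR-29 family are short RNAs that guide a silencing complex to matching sites in the 3′ untranslated region (UTR) of messenger RNAs, which lowers the stability or translation of those messages. Collagens and other matrix genes are among their best known targets, and fibroblasts are the main producers of those proteins. Interferons are secreted proteins that switch on antiviral genes through JAK-STAT signalling, and SREBP and ATF4 are factors that switch on genes of sterol synthesis and of amino acid supply. The 3 mature miR-29 forms of the mouse are shown because all of them share the seed, bases 2 to 8, in capitals, which pairs with target sites. The sequences are RefSeq entries, and miR-29b-3p is encoded by Mir29b-1 at chr6:31063025-31063047 of GRCm38, minus strand.
mmu-miR-29b-3p: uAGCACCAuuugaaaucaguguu
mmu-miR-29a-3p: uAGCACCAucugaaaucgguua
mmu-miR-29c-3p: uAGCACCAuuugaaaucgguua

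Mir29b-1, the gene of the microRNA that the vector was built to express, was checked first. It had 0, 0 and 0 counts in the empty vector libraries and 0, 1 and 1 counts in the Col1a1-miR-29b libraries. Both groups were at or under the floor of 3 counts per library, so no fold is given. The gene was tested and not called (edgeR adjusted p = 0.351). The gene did register the vectors in other groups, with 110, 115 and 309 counts in CMV-miR-29b cells without TGF-β and 4, 2 and 6 counts in Col1a1-miR-29b cells with TGF-β, against 0 in every empty vector library. Both of those comparisons were called (edgeR adjusted p = 0.00263 and 0.0241). Poly(A) libraries do not hold mature microRNAs, so the level of mature miR-29b was not measured. Levels are given as CPM, counts of a gene scaled to a common library size. Of the fibroblast markers, Col1a1 lay between 745 and 1072 CPM, while Thy1 and Lum had 0 counts in all 6 libraries. Summed over 12 tested fibroblast markers, the level was 5237 to 5746 CPM with empty vector and 4420 to 4778 CPM with Col1a1-miR-29b, and 2 of the 12 were lower. Among macrophage and leukocyte markers Adgre1, Tyrobp and Cd3e had 0 counts in every library, and none of the 7 tested was called. The summed level of all 12 of these markers, tested or not, was 23 to 25.4 CPM with empty vector and 25.5 to 26.8 CPM with Col1a1-miR-29b.

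Total counts were 77507478 to 80332633 per library with empty vector and 70641545 to 74376198 with Col1a1-miR-29b, so depth moved with the vector, and its part in the results was not tested beyond a thinned alternative. The correlation of log counts between libraries of a group was 0.966 to 0.968. The first principal component, 25.8% of the variance over the 6 libraries, separated the vectors.

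Col1a1-miR-29b cells had higher levels of 543 genes and lower levels of 784 genes, at an adjusted p under 0.05 by the quasi-likelihood test of edgeR. These were 2.57% and 3.7% of the genes tested. Most changes were small, with a median of 1.25-fold, and 71 genes rose and 20 fell by 2-fold or more. At an unadjusted p under 0.05 there were 4560 genes. Counts fell when 1 library was left out, from 543 higher to 287, 166 and 246 without Col1a1-miR-29b c, d and the unlettered library, to 193 and 229 without empty vector c and d, and to 400 without empty vector e. For genes lower, 784 became 648, 325 and 496, and 245, 337 and 609, in the same order. In 1324 of the 1327 genes the libraries of the vectors did not overlap, against 29% of all genes tested. The exceptions were Col11a1, Rps12-ps4 and Ufsp1. A low p from the same libraries already favours genes without overlap, so this describes the called genes and adds no support. The same holds for the remarks on overlap of called genes below. The split of the calls depended on scaling: 40.9% were higher with the trimmed mean of M values (TMM), 35% with DESeq2 size factors and 51.4% with total counts, which moved the median of all genes from 0.02 to 0.01 and 0.05 on the log2 scale. In bulk RNA, fewer cells that express a gene and less RNA of it per cell cannot be told apart. Of the lists examined, 39 of 69 interferon-induced genes rose, and 13 of 26 genes of sterol and fatty acid synthesis, 10 of 26 of the stress responses and 10 of 32 collagens fell, as the plot of fold change against p shows.

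**Figure D1:**
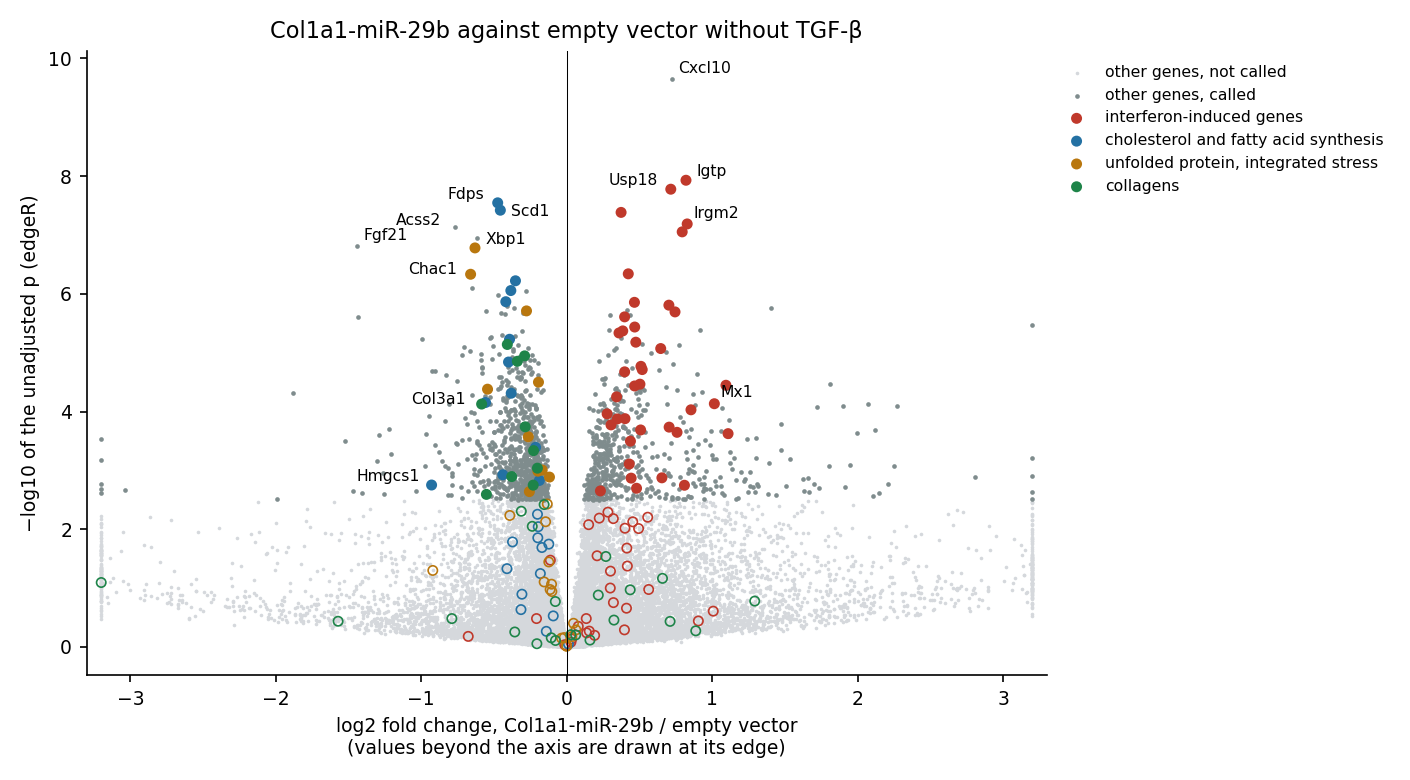
Each point is 1 of the genes tested, with the log2 fold change of Col1a1-miR-29b over empty vector on the horizontal axis and −log10 of the unadjusted edgeR p on the vertical axis. Filled coloured points are called list members and open ones are members not called; the interferon-induced genes called all lie on the right, and the sterol, stress response and collagen genes called all lie on the left.

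The strongest change by p was Cxcl10, a chemokine that draws T cells and is induced by interferons. It had 426, 396 and 451 CPM with empty vector and 684, 723 and 698 CPM with Col1a1-miR-29b, so every treated library lay well above every control. Its level was 65.3% higher, a log2 fold change of 0.73 ± 0.05 (SE, n = 3 per vector; edgeR adjusted p = 4.75e-06). Its gene lies at chr5:92346638-92348882 on the minus strand. Ccl5 and Ccl7, chemokines for lymphocytes and monocytes, rose by 0.32 and 0.36 on the log2 scale. These 3 were the only members called of 25 tested cytokines and chemokines, and Cxcl10 alone was also called with offsets that corrected for length and GC content. The number called was also 1 without library c of either vector, Col1a1-miR-29b d or empty vector e.

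Of 17 interferon-inducible GTPases, proteins that act on the vacuoles of intracellular pathogens, 13 rose and none fell, with a median log2 fold change of 0.50 against 0.02 over all genes. Igtp had 112, 107 and 116 CPM with empty vector and 201, 209 and 182 CPM with Col1a1-miR-29b. Its level was 1.76-fold higher (log2 0.82 ± 0.07 SE, edgeR adjusted p = 0.000117). Irgm2 had 112, 122 and 121 CPM against 218, 205 and 206 CPM, a rise of 0.83 ± 0.08 (SE, edgeR adjusted p = 0.000195). In neither gene did the vectors overlap. The spans of Igtp and Irgm2 share 7974 bases on the same strand, so reads may have been split between them and they are not independent. Gbp2, a guanylate-binding protein, rose by 0.47 from a range of 52.0 to 56.5 CPM to one of 73.3 to 79.7 CPM.

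Iigp1 and Gm4951, also GTPases of this family, were 2.13-fold and 2.16-fold higher, with log2 fold changes of 1.09 ± 0.19 and 1.11 ± 0.23 (SE). Iigp1 had 9.82, 9.90 and 7.62 CPM against 21.6, 16.1 and 20.6 CPM. They are the ends of a stretch of chromosome 18, from 60212080 to 60392634 in the deposited coordinates, in which 5 genes were tested and 4 rose. The others called there were F830016B08Rik, the largest rise among genes of at least 1 CPM, at 2.27 ± 0.42 (SE), and Gm4841 at 1.48 ± 0.30 (SE). F830016B08Rik was nonetheless rare, at 0.275, 0.524 and 0.243 CPM against 2.24, 1.09 and 1.72 CPM. The fifth, Gm5970, was not called. Neighbouring GTPase copies are near identical in places and counting could split reads among them. A second stretch on chromosome 11, from Irgm1 at 48861968 to the end of Tgtp1 at 48994172, held 6 tested genes, of which 3 rose and none fell. Both stretches were picked after their values were seen.

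Of 52 interferon-stimulated antiviral genes, 26 rose and none fell, with a median of 0.40. Usp18, a protease that removes ISG15 and dampens the interferon receptor, had 147, 143 and 149 CPM against 247, 232 and 240 CPM. It was 1.64-fold higher (log2 0.71 ± 0.07 SE, edgeR adjusted p = 0.000117). Mx1, a GTPase that blocks influenza virus, rose from 15.5, 12.3 and 10.8 CPM to 29.0, 21.5 and 27.4 CPM, a log2 change of 1.01 ± 0.19 (SE, edgeR adjusted p = 0.00751). Its lowest treated library was above its highest control, although Col1a1-miR-29b library d lay closer to the controls than the other two. Ifit1, which binds viral RNA caps, rose by 0.74 ± 0.10 from 185, 186 and 191 CPM to 318, 296 and 327 CPM. Oas1c, of the family that senses double-stranded RNA, rose by 0.79 ± 0.08 from 23.4, 24.5 and 26.3 CPM to 42.0, 43.4 and 43.2 CPM.

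Smaller rises were seen in abundant members. Isg15, a ubiquitin-like protein, had 241, 211 and 226 CPM against 308, 294 and 291 CPM, a rise of 0.40 ± 0.07 (SE). Xaf1, a pro-apoptotic factor, rose by 0.37 with an edgeR adjusted p of 0.000145. Adar, the RNA editing enzyme, rose by 0.28 and Eif2ak2, the kinase PKR, by 0.23 on the log2 scale. Among all 69 genes of both lists, 39 rose, none fell and the libraries of the vectors did not overlap in 55, against 29% of all genes. Leaving out 1 library at a time gave 29 to 35 higher calls, the fewest without empty vector c.

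Of 19 factors of interferon signalling 3 rose, with a median of −0.01. The number was 1 without Col1a1-miR-29b d or empty vector c and 2 without any other library. Irf7, the master factor of type I interferon genes, had 229, 231 and 231 CPM against 308, 308 and 301 CPM (log2 0.41 ± 0.06 SE, edgeR adjusted p = 0.00352). Stat2 rose by 0.28 and Socs3, a feedback inhibitor of cytokine receptors, by 0.39. Ifnar1 and Ifnar2, the receptor of type I interferon, were not called, at log2 fold changes of 0.14 and −0.11. The interferon genes themselves were hardly detected. Ifnb1 had 13, 4 and 7 counts with empty vector and 7, 15 and 14 counts with Col1a1-miR-29b and was not called, Ifng had 0 counts in all 6 libraries, and no gene among 13 of the Ifna family exceeded 14 counts in any library. These interferon and receptor genes were looked up after the lists had been seen.

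Of 19 antigen presentation genes, 4 rose and none fell, with a median of 0.17. Tapbp, which loads peptides onto MHC class I, had 143, 144 and 148 CPM against 191, 193 and 176 CPM, a rise of 0.36 ± 0.07 (SE, edgeR adjusted p = 0.00643). There were 2 calls without Col1a1-miR-29b c or d or empty vector d. B2m, the light chain of MHC class I, rose by 0.22 and Psmb10, an immunoproteasome subunit, by 0.40. H2-Q6, a rare class I gene with close copies, rose by 0.73 with an edgeR adjusted p of 0.0495. Among 17 genes of nucleic acid sensing only Samhd1, which degrades nucleotides, was called, at 0.15, and none was called without any 1 library but empty vector d.

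The promoters of the interferon-induced genes are shown because their members rose together. Windows from 250 bases before to 50 bases after each RefSeq start (GRCm38) were searched on both strands for the interferon-stimulated response element, here GAAANNGAAA. It was in 3.99% of all genes with a window. Of the 39 list members that rose, 28 had a window and 23 of these, or 82.1%, held the element. Among list members not called it was in 7 of 22, or 31.8%. Outside the lists it was in 25 of 341 genes called higher, or 7.33%, and in 14 of 609 genes called lower, or 2.3%. A match describes letters in the window and is no proof of a site. Ifit1 and Ifit1bl2 share the same matched stretches, and copies such as Igtp and Irgm2 have near identical ones. The 23 are therefore not all separate promoters. The stretches below lie before the start, with the element in capitals; Oas1c and Gbp2 hold it on the opposite strand, where its bases read as the reverse complement, and Isg15 and Oas1c hold overlapping copies.
Cxcl10, chr5:92349069-92349126, minus strand: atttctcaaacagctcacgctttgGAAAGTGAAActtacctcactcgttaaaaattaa
Igtp, chr11:58199498-58199555, plus strand: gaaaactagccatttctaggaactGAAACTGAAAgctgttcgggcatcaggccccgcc
Irgm2, chr11:58214889-58214946, plus strand: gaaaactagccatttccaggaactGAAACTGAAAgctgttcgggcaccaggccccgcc
Isg15, chr4:156200851-156200920, minus strand: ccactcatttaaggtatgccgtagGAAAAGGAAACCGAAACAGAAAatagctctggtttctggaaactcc
Oas1c, chr5:120812589-120812652, minus strand: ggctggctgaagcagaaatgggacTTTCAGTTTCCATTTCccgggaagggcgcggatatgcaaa
Gbp2, chr3:142620580-142620637, plus strand: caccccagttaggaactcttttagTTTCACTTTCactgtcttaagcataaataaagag

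The element of Igtp began 34 bases before its start and that of Irgm2 64 bases before. In Cxcl10 it began 213 bases before the start. A second element, the gamma-activated sequence TTCNNNGAA, was in 11 of the 28 members that rose, or 39.3%, against 9.55% of all genes with a window. This second element was in 3 of 22 list members not called, or 13.6%. Outside the lists it was in 25 of 341 genes called higher, or 7.33%. Among genes called lower it was in 50 of 609, or 8.21%.

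**Figure D2:**
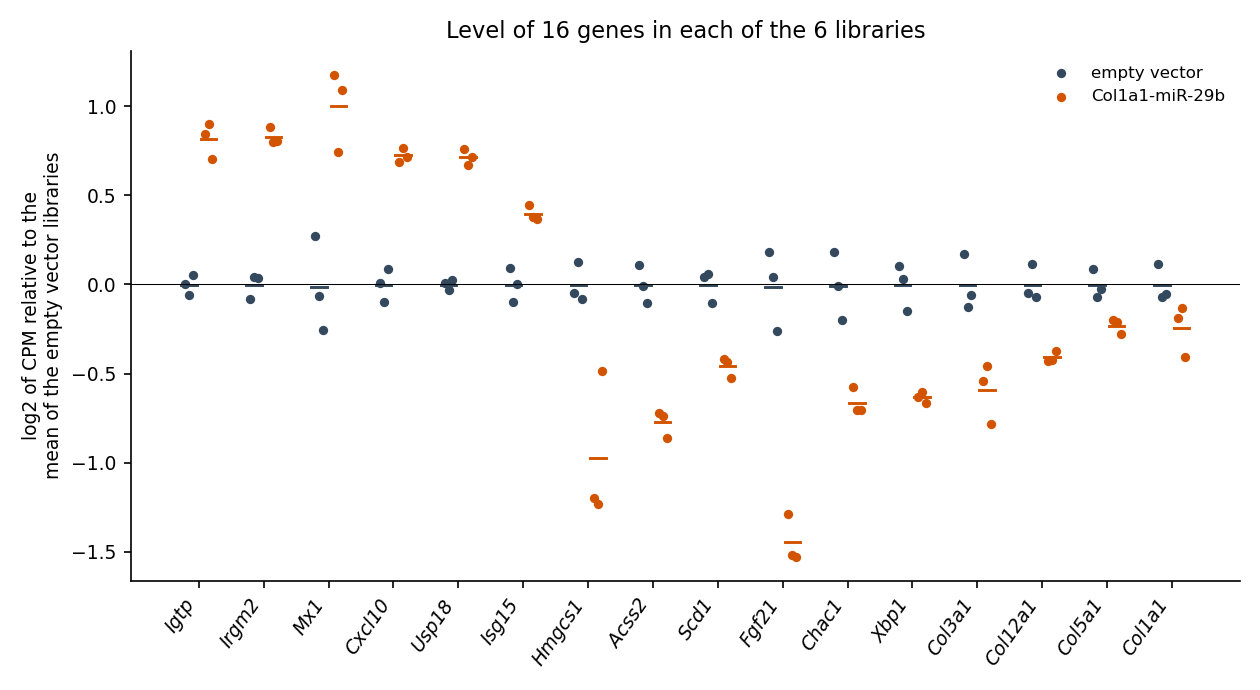
For 16 genes, each point is 1 library, plotted as log2 CPM relative to the mean of the empty vector libraries, and bars are group means. Igtp, Irgm2, Mx1, Cxcl10, Usp18 and Isg15 sit above 0 in all Col1a1-miR-29b libraries, and the other 10 genes sit below, with Hmgcs1 the most spread.

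Genes of cholesterol and fatty acid synthesis fell. Of 26 tested, 13 were lower and none higher, with a median log2 fold change of −0.33. These genes are controlled by the SREBP factors, which act when sterols in the endoplasmic reticulum run low. Fdps, which makes farnesyl diphosphate in the mevalonate pathway, had 249, 239 and 235 CPM with empty vector and 181, 169 and 170 CPM with Col1a1-miR-29b. It was 1.39-fold lower (log2 −0.47 ± 0.05 SE, edgeR adjusted p = 0.000145). Every treated library lay below every control.

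Scd1, which desaturates fatty acids, had 375, 378 and 338 CPM against 273, 269 and 253 CPM (log2 −0.46 ± 0.04 SE, edgeR adjusted p = 0.000145). Cyp51 and Sqle, enzymes on the way from squalene to cholesterol, had log2 fold changes of −0.35 and −0.56. Hmgcs1, which makes HMG-CoA, had 336, 379 and 329 CPM against 152, 148 and 248 CPM. It was 1.90-fold lower (log2 −0.93 ± 0.25 SE, edgeR adjusted p = 0.0369), and its unlettered library lay much nearer the controls than libraries c and d. Srebf2, which encodes the factor of sterol synthesis, had 297, 307 and 290 CPM against 180, 247 and 232 CPM (log2 −0.44 ± 0.11). Insig1, which retains that factor in the endoplasmic reticulum, had a log2 fold change of −0.19. Outside the list, 2 further genes of lipid handling were among the 5 lowest p of the genes that fell. Acss2, which makes acetyl-CoA from acetate, had 63.6, 58.6 and 54.9 CPM against 35.9, 35.4 and 32.5 CPM, 1.71-fold lower. Its span shares 13800 bases with Gss on the opposite strand, whose counts were 65.8% of those of Acss2. Abca1, which exports cholesterol and is itself induced by high sterols, was 1.54-fold lower, with controls at 40.3 to 43.7 CPM and treated libraries at 26.3 to 27.4 CPM.

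The sterol response element TCACNCCAC was in 1.44% of all windows' genes. Only 6 of the 13 sterol genes that fell had a window, and 1 of these, Hmgcs1, held it, 137 bases before the start on the plus strand.
Hmgcs1, chr13:119690190-119690246, plus strand: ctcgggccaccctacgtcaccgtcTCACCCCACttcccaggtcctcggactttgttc

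Genes of the unfolded protein and integrated stress responses fell as well, 10 of 26 tested, with none higher and a median of −0.14. These responses raise chaperones and amino acid supply when proteins misfold or amino acids run short. Xbp1, the factor spliced by IRE1, had 122, 116 and 103 CPM with empty vector and 73.5, 75.0 and 71.7 CPM with Col1a1-miR-29b. It was 1.55-fold lower (log2 −0.63 ± 0.07 SE, edgeR adjusted p = 0.000292). Chac1, an enzyme that degrades glutathione, had 111, 97.0 and 84.9 CPM against 65.4, 59.8 and 59.8 CPM, a log2 change of −0.66 ± 0.08. Trib3, a pseudokinase induced through ATF4, had a log2 change of −0.54 ± 0.10. None of these overlapped between vectors.

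Fgf21, a secreted hormone that ATF4 also induces, was outside the list and was among the largest falls. Its libraries held 17.7, 16.1 and 13.0 CPM against 6.38, 5.44 and 5.42 CPM, 2.71-fold lower (log2 −1.44 ± 0.16 SE, edgeR adjusted p = 0.000292). Chaperones of the endoplasmic reticulum had smaller log2 changes at far higher levels. Hsp90b1 had 2023, 2137 and 1981 CPM against 1678, 1689 and 1702 CPM, a log2 change of −0.28. Hspa5, the chaperone BiP, had a log2 change of −0.20, and Psat1 and Mthfd2, of serine and folate metabolism, each had −0.26. Atf4 itself was not called. It had 619, 617 and 557 CPM against 213, 213 and 522 CPM, so the unlettered library was close to the controls while the others were at a low level (log2 −0.92 ± 0.43 SE, edgeR adjusted p = 0.232). The number called of this list was 5 to 10 when single libraries were left out, with 5 without empty vector c and 6 without Col1a1-miR-29b c.

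The endoplasmic reticulum stress element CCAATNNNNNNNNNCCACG was in 0.14% of genes with a window and in 4 of the 10 list members that fell, Canx, Hsp90b1, Hspa5 and Pdia6. It is shown in capitals for a chaperone and a disulfide isomerase.
Hspa5, chr2:34772001-34772067, plus strand: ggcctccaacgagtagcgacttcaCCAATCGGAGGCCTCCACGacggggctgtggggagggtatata
Pdia6, chr12:17266467-17266533, plus strand: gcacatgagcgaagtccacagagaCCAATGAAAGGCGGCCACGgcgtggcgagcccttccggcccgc

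Enzymes that charge transfer RNAs, taken from the pathway column of the table, fell in part: 13 of 44 tested fell and 1 rose. Their median was −0.05, with 19 members above 0 and 25 below. Eprs had 755, 767 and 718 CPM against 596, 585 and 604 CPM (log2 −0.33 ± 0.07 SE, edgeR adjusted p = 0.0114). Aars and Lars had log2 changes of −0.18 and −0.28. The exception, Pars2, a mitochondrial prolyl-tRNA synthetase, rose by 1.25 from 3.74, 5.98 and 4.17 CPM to 7.53, 14 and 11.5 CPM. Of 122 genes of oxidative phosphorylation, 11 rose and none fell, among them Ppa1 at 0.30 and Cox5a at 0.20. Their median transcript length was 1232 bases, and with offsets for length and GC content the number higher was 5.

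Collagens fell in part. Of 32 tested, 10 were lower and none higher, with a median of −0.20, and 6 or 7 were lower when any 1 library was left out (6 without Col1a1-miR-29b d or empty vector c or d). Col3a1, the fibrillar collagen of soft tissues, had 229, 186 and 196 CPM with empty vector and 140, 148 and 118 CPM with Col1a1-miR-29b. It was 1.5-fold lower (log2 −0.59 ± 0.11 SE, edgeR adjusted p = 0.00751). Of 10 fibrillar collagens, Col3a1, Col5a1, Col5a3 and Col11a1 fell, with log2 changes of −0.59, −0.23, −0.29 and −0.55. DESeq2 called 7, and 2 were called without any 1 library but empty vector e, where 3 were. Col11a1 had 11.1, 11.6 and 7.48 CPM against 5.90, 7.79 and 6.85 CPM, so its libraries overlapped. Col1a1 and Col1a2, the chains of type I collagen, did not pass the threshold. Col1a1 had 1072, 942 and 955 CPM against 869, 904 and 745 CPM (log2 −0.24 ± 0.08 SE, edgeR adjusted p = 0.0883). Col1a2 had 657, 567 and 592 CPM against 513, 508 and 442 CPM (log2 −0.31 ± 0.10 SE, edgeR adjusted p = 0.0641). In both genes every treated library was nonetheless below every control.

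In basement membranes, the sheets under epithelia and around vessels, 3 of 8 collagens fell, and 1 was called without empty vector d. The median of the 8 was −0.02, with 4 members above 0 and 4 below. Col4a5 had 97.8, 98.9 and 99.1 CPM against 79.5, 78.9 and 75.3 CPM, a log2 change of −0.34 ± 0.05 (SE, edgeR adjusted p = 0.00352). Its libraries hardly varied within a vector and did not overlap between them. Col4a2 and Col18a1 had log2 changes of −0.23 and −0.38. Col4a1 and Col4a3 went the other way, at 0.27 and 0.66, and were not called. Of 14 other collagens, Col12a1, Col6a1 and Col6a2 fell, by −0.41, −0.20 and −0.29 on the log2 scale. Col12a1, which decorates collagen fibrils, had 110, 123 and 108 CPM against 84.3, 85.0 and 87.8 CPM.

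Of 37 matrix glycoproteins and proteoglycans, 7 fell and none rose, with a median of −0.13. Fn1, the fibronectin that cells assemble into fibrils, had 1869, 1810 and 1772 CPM against 1501, 1488 and 1344 CPM (log2 −0.33 ± 0.07 SE, edgeR adjusted p = 0.0141). Tnc, tenascin C, had a log2 change of −0.52, Hspg2, the basement membrane proteoglycan perlecan, −0.35, and Fbn1, the microfibril protein fibrillin, −0.30. Ddr2, a receptor for collagen, had 381, 386 and 355 CPM against 290, 264 and 291 CPM, and Mmp14, a membrane protease that degrades collagen, had a log2 change of −0.33. Of 28 genes that fold, modify and cross-link collagen, 1 rose and 3 fell. None was higher when any 1 library was left out, and 1 was lower without empty vector c. Of the glycoproteins, 1 was called without empty vector c, and 3, 2, 4 and 4 without Col1a1-miR-29b d, the unlettered library and empty vector d and e. With offsets for length and GC content, 7 of the 10 collagens and 5 of the 7 glycoproteins were also called.

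**Figure D3:**
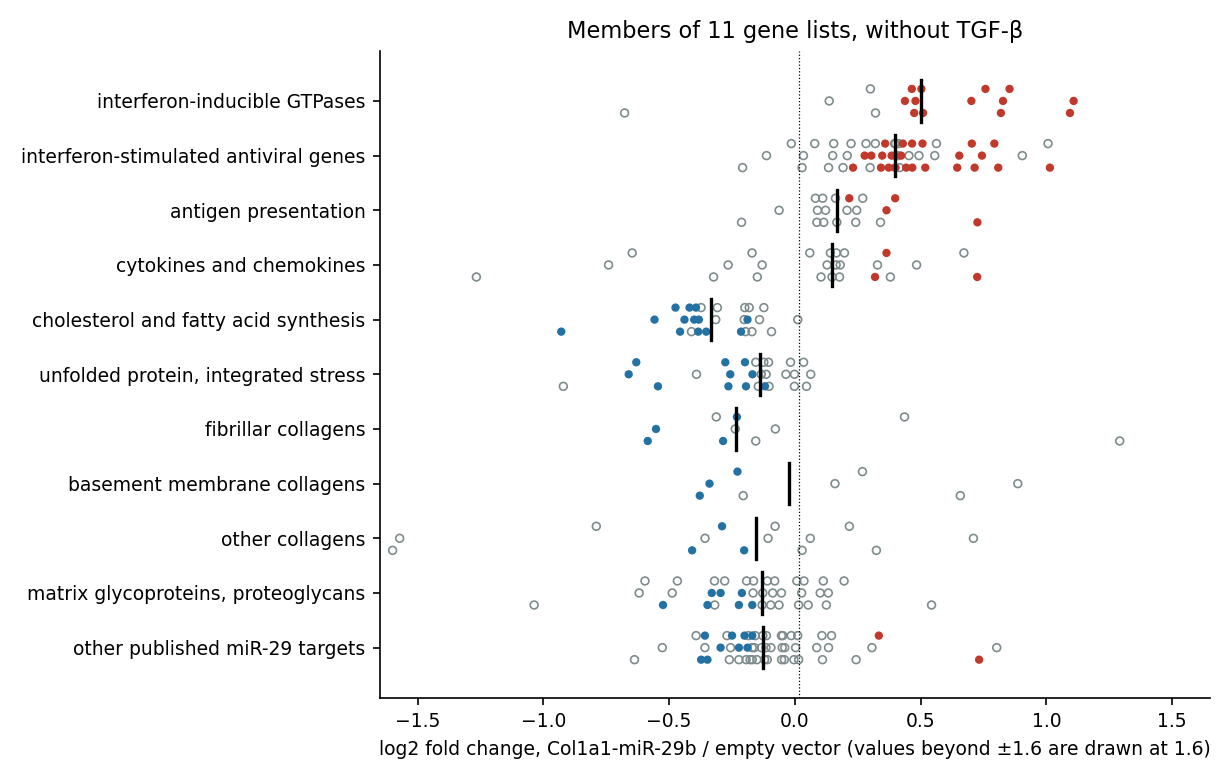
Each row is a gene list and each point a tested member at its log2 fold change of Col1a1-miR-29b over empty vector, with filled red points called higher, filled blue points called lower and open points not called. Black bars are list medians and the dotted line is the median of all genes, 0.02; the interferon lists have filled points to the right of it, and those of sterol synthesis, stress response and fibrillar collagens lie to the left.

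Sites that pair with the miR-29 seed were counted in the 3′ UTRs of the GENCODE annotation of GRCm38, as TGGTGCTA (8 bases) and TGGTGCT (7 bases, which every 8-base match contains). Of 12244 tested genes with no 7-base match, 4.88% fell and 3.05% rose. Among 1675 genes with a 7-base match and no 8-base match, 7.82% fell and 3.10% rose. Of 434 genes with 1 8-base match, 6.45% fell and 1.84% rose. Of 23 genes with 2 or more, 5 fell and none rose, with a median log2 fold change of −0.14. Length moved with the sites, from a median of 3076 bases without a match to 8035 bases with 2 or more 8-base matches. With length and GC offsets the number lower went from 164 to 121 of the 2132 genes with a match, or from 7.69% to 5.68%, and from 597 to 607 of those without one, or from 4.88% to 4.96%. The medians with offsets were −0.03 in both. Of the 5 genes, Col4a5 and Tet3 were called with offsets.

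The 5 genes were Dnmt3a, Col5a1, Col4a5, Tet3 and Sestd1. Their sites are shown with the 8-base match in capitals, beside that of Col3a1, which has 1 such match. Col4a5 has 3.
Col4a5, chrX:141688232-141688260, plus strand: ctttaccactgctcccaccaaTGGTGCTA
Col5a1, chr2:28038013-28038041, plus strand: attttttacacttgtctcttgTGGTGCTA
Dnmt3a, chr12:3911384-3911412, plus strand: cccttgcccaggggaggtagcTGGTGCTA
Tet3, chr6:83364336-83364364, minus strand: gaattgaaatagtctaataaaTGGTGCTA
Sestd1, chr2:77186817-77186845, minus strand: caaccaatactaagctttgaaTGGTGCTA
Col3a1, chr1:45348961-45348989, plus strand: tccaacttcaaaatgtctcaaTGGTGCTA

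Tet3, which oxidises 5-methylcytosine, had 127, 134 and 126 CPM against 112, 101 and 113 CPM (log2 −0.25 ± 0.04 SE, edgeR adjusted p = 0.00642). Dnmt3a, a DNA methyltransferase, had 79.3, 80.8 and 75.2 CPM against 70.1, 63.1 and 68.5 CPM, a log2 change of −0.22. Sestd1 had a log2 change of −0.28, from 55.5, 52.6 and 56.5 CPM to 45.6, 45.8 and 44.5 CPM. In each of them the vectors did not overlap. Of 53 published miR-29 targets outside the collagens, 9 fell and 2 rose, with a median of −0.13. The 2 that rose were Zfp36, which destabilises AU-rich messages, at 0.73 ± 0.12 (SE, edgeR adjusted p = 0.00383), and Sgms2, a sphingomyelin synthase, at 0.33. Zfp36 had 26.9, 33.7 and 28.9 CPM against 46.1, 51.4 and 51.4 CPM, without overlap. The number lower was 1 without empty vector c, 2 without empty vector d or Col1a1-miR-29b d, 3 without the unlettered library and 6 without empty vector e. The median length of this list was 5423 bases. With offsets for length and GC content, 5 of the 53 were lower and 3 higher.

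The largest changes were in genes of low level. Krt16, a keratin of stressed epithelium, had 2.74, 1.92 and 2.0 CPM with empty vector and 6.44, 5.78 and 5.4 CPM with Col1a1-miR-29b, 2.65-fold higher (log2 1.4 ± 0.19 SE, edgeR adjusted p = 0.00143). Ptk6, a cytoplasmic tyrosine kinase, was 3.50-fold higher, from 0.512, 0.649 and 0.947 CPM to 2.28, 2.13 and 2.99 CPM. Ifi206, an interferon-induced gene with close copies, rose by 1.31. The other rises among the 10 largest were the unnamed loci 2210418O10Rik, Gm38100, Gm11824 and Gm42940, at 1.73, 1.63, 1.51 and 1.47, and the pseudogene Rps27a-ps2 at 1.30. Of the 6 tested epithelial markers none was called. The summed level of all 10 epithelial markers, tested or not, was 69.3 to 84.4 CPM with empty vector and 64.9 to 65.3 CPM with Col1a1-miR-29b.

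Among the falls, Igfbp4, which binds insulin-like growth factors, had 8.71, 9.39 and 6.72 CPM against 3.36, 2.90 and 2.90 CPM, 2.71-fold lower (log2 −1.44 ± 0.20 SE, edgeR adjusted p = 0.00146). Elfn2, Mamdc2 and Fam57b had log2 changes of −1.21, −1.29 and −1.31, of which Fam57b overlaps the far more abundant Aldoa on the opposite strand. Gm10409 had 268, 704 and 299 counts with empty vector and 0 in all 3 Col1a1-miR-29b libraries, at least 131-fold lower against the floor of 3 counts per library. It shares 5698 bases of its span with its copy Gm3005 on the same strand, and its log2 difference with TGF-β was −0.10, so its counts are uncertain. At the other end of abundance, Eef1a1 and Eef2, elongation factors of translation, had log2 changes of −0.26 and −0.21 and Pgk1, of glycolysis, −0.20. The mitochondrial ribosomal RNA mt-Rnr1 rose by 0.33, and it was not called without any 1 library but empty vector d. It was the only one called of 15 mitochondrial transcripts, of which 10 had a log2 fold change below 0, with a median of −0.27. Gm42418, a locus that overlaps ribosomal RNA, had 55.9, 59.8 and 67.2 CPM against 35.8, 25.5 and 30.6 CPM (log2 −0.99 ± 0.15 SE, edgeR adjusted p = 0.0025). The part of these signs of RNA make-up in the other results was not tested. The remaining loci among the 10 largest falls were 5330438D12Rik, AC125101 and 4933431C10Rik, at −3.04, −1.22 and −1.04, each of which overlaps another gene on the opposite strand.

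Other lists changed in few members. Over all genes tested, 2.57% were higher and 3.7% lower, and a single call in such a list is near that share. Of 21 immediate early factors 3 rose, Jun at 0.37, Junb at 0.42 and Fosb at 0.58, and 1 fell, which was not called without any 1 library. Junb shares 351 bases of its span with Prdx2 on the opposite strand. Of 41 cell cycle genes 4 rose and 3 fell. Pcna, the clamp of DNA polymerase, had 400, 400 and 389 CPM against 506, 525 and 470 CPM, and Ccne1, cyclin E, rose by 0.55. Top2a, a topoisomerase of mitosis, had 1008, 1002 and 989 CPM against 852, 788 and 830 CPM (log2 −0.28 ± 0.04 SE, edgeR adjusted p = 0.00106). Without Col1a1-miR-29b d or empty vector c, 1 cell cycle gene was lower. Of 32 genes of the TGF-β pathway 1 rose and 3 fell. Without Col1a1-miR-29b d 0 were higher, and 1 was lower without Col1a1-miR-29b d or empty vector c or d. Smad3, which carries the TGF-β signal to the nucleus, had 71.1, 61.2 and 61.4 CPM against 52.1, 47.4 and 44.7 CPM, a log2 change of −0.43. Pmepa1, a feedback inhibitor of that signal, rose by 0.37. Acta2, the smooth muscle actin of myofibroblasts, was not called, at 3.04, 3.59 and 3.59 CPM against 4.0, 3.73 and 2.92 CPM. Of 17 integrins 1 fell, of 16 NF-κB genes 2 fell, of 20 p53 targets 2 rose and of 23 lysosomal genes 2 rose, and each of these counts was 0 without empty vector c.

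Calls moved with transcript length. The genes tested were divided into 4 equal classes of length. In the shortest, 54 to 1320 bases, 113 rose and 18 fell, with a median log2 fold change of 0.16. In the longest, 4089 to 123179 bases, 110 rose and 500 fell, with a median of −0.07. With offsets for length and GC content fitted per library, these became 54 and 46 in the shortest and 178 and 341 in the longest. The interferon lists had median lengths of 3382 and 3048 bases and, of the 13 and 26 genes called higher, 13 and 24 were also called with the offsets, where 1 antiviral gene was lower. The sterol genes, of median length 4362, went from 13 to 14 lower calls and the stress response genes, of 2152, from 10 to 12. Fibrillar collagens, of 6084, went from 4 to 2.

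**Figure D4:**
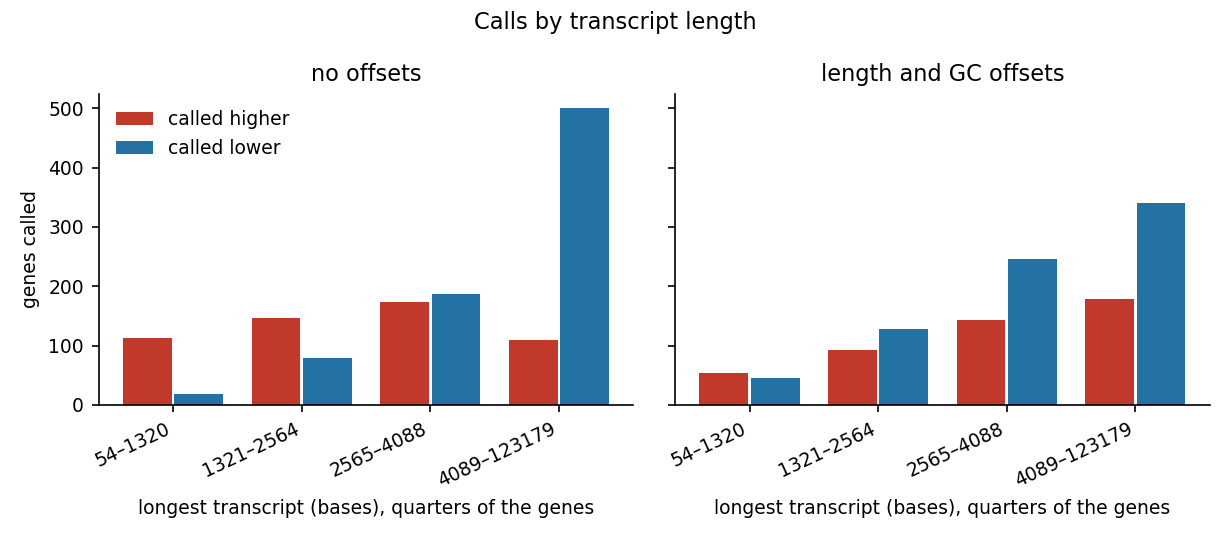
Bars give the number of genes called higher or lower for Col1a1-miR-29b in each of 4 classes of transcript length, without and with offsets for length and GC content. In the longest class 500 genes were lower without offsets and 341 with them, and in the shortest 113 and 54 were higher.

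The same vectors were compared with TGF-β in 6 other libraries, which share none with the comparison above. There 1123 genes rose and 1615 fell, 5.31% and 7.63% of those tested. Of the 1327 genes called without TGF-β, 1303 had the same sign with it, or 98.2%, against 70.7% of all genes. The trend with transcript length was also alike. The medians of the shortest and longest classes were 0.16 and −0.10 with TGF-β, and 0.16 and −0.07 without it. The part of length in the shared signs was not tested. In both comparisons 995 were called with the same sign, and 1 with opposite signs, Pmepa1. Together these are 75.1% of those called without TGF-β and 36.4% of those called with it. Across the called genes the log2 fold changes correlated at r = 0.58, given as a description since genes are not independent replicates. No gene passed the threshold for a difference between the conditions by edgeR, or 0%, with 961 at an unadjusted p under 0.05 and 27 called by DESeq2.

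**Figure D5:**
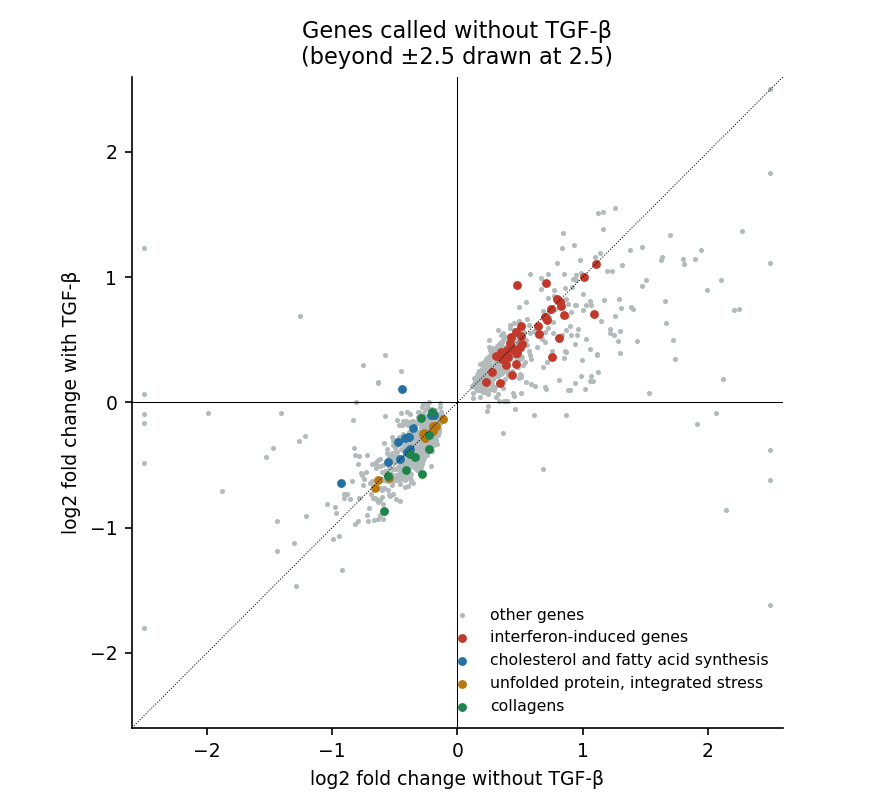
Each point is a gene called without TGF-β, with its log2 fold change of Col1a1-miR-29b over empty vector without TGF-β on the horizontal axis and with TGF-β on the vertical axis. Most points, 1303 of 1327, lie in the quadrants of equal sign.

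With TGF-β, 37 of the 69 interferon-induced genes rose and 1 fell. Cxcl10 had a log2 fold change of 0.84, Igtp 0.80, Usp18 0.66 and Mx1 1.0. Of the sterol genes 9 fell, with a median of −0.14, and Srebf2 had a log2 fold change of 0.11 there, against −0.44 without TGF-β (unadjusted p of the difference 0.0031, edgeR adjusted p = 0.92). Hmgcs1 had −0.65 and was not called. Of the stress response genes 12 fell, Fgf21 among the genes outside the list had −1.18, and Xbp1 had −0.62. Collagens called lower numbered 12 of 32, with 7 of the 10 fibrillar ones, whose median was −0.51 against −0.23 without TGF-β. Col1a1 and Col1a2 passed the threshold there, at −0.46 and −0.63, and Col3a1 had −0.87. None of these differences between the conditions passed the threshold.

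The CMV-miR-29b vector, which expresses miR-29b from the CMV promoter, was set beside them without TGF-β. It was compared with the same 3 empty vector libraries, so the comparisons are not independent and only their values are given. The paper gives a smaller mass of DNA for CMV-miR-29b than for Col1a1-miR-29b, and the part of mass in these values was not tested. By edgeR 1 gene was called, Mir29b-1, or 0.00473%, with 1156 at an unadjusted p under 0.05 and 43 called by DESeq2. The median of the interferon GTPases was 0.15 with CMV-miR-29b and 0.50 with Col1a1-miR-29b. That of the antiviral genes was 0.12 and 0.40. For sterol genes the medians were −0.03 and −0.33, and for stress response genes −0.02 and −0.14. For fibrillar collagens they were −0.22 and −0.23. Col3a1 had a log2 fold change of −0.43, Col1a1 −0.24 and Col4a5 −0.22 with CMV-miR-29b, while Cxcl10 had 0.02, Scd1 −0.05 and Fgf21 −0.24. None of these passed the threshold with CMV-miR-29b.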

How the data were processed

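RNA-seq libraries of MEF with the empty or the Col1a1-miR-29b vector without TGF-β, 3 each, were analysed from the table of 55450 genes that the authors deposited. As deposited, counts are whole numbers per gene without normalization, made by the authors from paired-end reads by trimming with Cutadapt, mapping with HISAT2 and assembly with StringTie. The versions, and how the counts were taken and whether strand was used, are not given in the sources used here. The authors also deposited FPKM values (scaled by length and reads), used only in an alternative on log2(FPKM + 1) and log2(FPKM + 0.1) with limma. The submitters' processing notes list mm9, while the methods name Ensembl 96, and coordinates of 52543 genes are identical to GENCODE M21 on GRCm38, which was used here. Of counts from 1 to 40, 34.2% to 36.7% per library were multiples of 4, so the counts carry error beyond simple tallies, and an alternative divided them by 4.

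In each Col1a1-miR-29b group the third column bears a letter found in no sample title. It was used as an unlettered library with counts only, and 2 per-sample columns were not used. Columns that hold the authors' own fold changes and p-values were not used.

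Counts were analysed in R 4.3.3 with edgeR 4.0.16: filterByExpr, TMM, 1 mean for each of the 6 groups over all 18 libraries, and quasi-likelihood tests, with p-values adjusted by Benjamini-Hochberg over 21161 genes, at a threshold of 0.05. CPM are TMM-scaled. Standard errors came from the F statistic. Alternatives used DESeq2 1.42.0 and limma 3.58.1, other scalings and filters, offsets for length and GC content, thinned counts, a replicate block and single libraries left out. The fit was tested on simulated data.

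The members and lists were chosen with earlier results of these data known. Genes named are the miR-29 genes and those the study names, the 10 largest rises and falls of at least 1 CPM without overlap, the 5 lowest p each way, up to 4 called members of each list with the lowest p (or 2 where none was called), and the 5 most abundant called genes. Named after their values were seen were genes such as Col1a1, Col1a2, Mx1, Iigp1, Ifit1, Isg15, Hmgcs1, Srebf2, Sqle, Hspa5, Trib3, Atf4, Dnmt3a, Sestd1, Eprs, Pars2 and Ppa1, with the interferon and receptor genes. Some list members are not reported here.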

Additional observations from a re-analysis of the deposited data

Results flagged for a closer look

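In 3 genes every Col1a1-miR-29b library lay on one side of every empty vector library without TGF-β and on the opposite side with it. Pmepa1 had a log2 fold change of 0.37 without TGF-β and −0.25 with it, and the difference had an unadjusted p of 1.7e-05 and an edgeR adjusted p of 0.175. The transcript 5330438D12Rik, which lies opposite to Cnot2, had −3.04 and 1.23, with an edgeR adjusted p of the difference of 0.85. Fcer1g, a leukocyte receptor chain, had −5.61 and 2.67, with an edgeR adjusted p of the difference of 0.92. Its empty vector libraries without TGF-β held 0.025, 0.0749 and 0.141 CPM and the Col1a1-miR-29b libraries 0, so the fitted fold rests on a few counts.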

How the results depend on the processing

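The 135 called genes among those selected for naming kept their direction in every alternative in which they were tested, at most 21 per gene. Of these 135, 36 stayed past the threshold in every one of these alternatives. Not all of the 135 are reported above. The alternatives reuse the same libraries, in which the vectors seldom overlapped for called genes. The kept direction therefore describes the calls and adds no support. The counts of genes higher, lower and at least 2-fold changed (543, 784 and 91) were 864, 1338 and 216 with DESeq2, 239, 151 and 47 with limma on log2(FPKM + 0.1), 305, 176 and 12 on log2(FPKM + 1), both of which also lack the unlettered libraries, 174, 338 and 46 without the unlettered libraries, and 318, 464 and 53 with the 6 libraries alone. With at least 1 count in any library 329 were higher and 53 changed at least 2-fold. They ranged from 166 to 400, 245 to 648 and 39 to 95 when single libraries were left out. Same-lettered libraries did not deviate together (mean r 0.011 over 36 pairs, −0.00564 over 70 pairs of other letters), and with the replicate block the counts were 68, 157 and 17, and 64, 82 and 14 with the replicate block and length and GC offsets together. With TGF-β, 2738 calls became 1633 and 1752 with limma at the lower and higher pseudocount, 1675 without the unlettered libraries, 1126 with the replicate block and 744 with block and offsets. Calls for the difference were 27 with DESeq2 and 3 with limma at either pseudocount, without the unlettered libraries and with the block with or without offsets, and 0 to 3 when libraries were left out; this was not run on the 6 libraries alone. CMV-miR-29b had 43 calls with DESeq2, 0 with at least 10 counts in every library, 0 with counts divided by 4, and 1 to 5 when libraries were left out. Acta2 ranged from −0.0514 to 0.17 when libraries were left out, with −0.02 without empty vector c, and Myog came to −0 with limma on log2(FPKM + 1). The cause was not tested. Thinning to the smallest total, robust dispersions, size factors, total counts and offsets without the block left the numbers of genes higher and lower within 1.5 times. Apart from single libraries left out, calls ranged from 15 to 44 for the interferon lists and 6 to 15 for sterol genes, lowest with block and offsets, and from 4 to 13 for stress response genes and 3 to 13 for collagens, lowest with limma on log2(FPKM + 0.1), and were highest with DESeq2. The floor of 3 counts per library limits statements on rare genes and covers counting error only.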
